A study of Mus musculus with 5 samples.

Results

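PABPC1 eCLIP peaks that fell in exons outside the UTRs were taken from the deposited PABPC1 peak list by their annotation, which had to begin with the word Exon. They numbered 756 of 14092 PABPC1 peaks, or 5.36% (95% Wilson interval 5.0 to 5.75%), while 11263 peaks lay in 3′ UTRs. The annotation also gives the exon's rank in its transcript, which separated internal, last, first and only exons. The libraries came from GC-2spd(ts), an immortalised mouse line whose cell type is labelled spermatocyte, with no treatment named in the labels. The series holds 1 PABPC1 immunoprecipitation, 2 CCT3 immunoprecipitations, 1 PABPC1 input and 1 CCT3 input. In eCLIP, RNA crosslinked to a protein is fragmented, immunoprecipitated and sequenced, and an input library is made without the antibody step. CCT3 is a subunit of the TRiC/CCT chaperonin, and its 2 lists, called CCT3 and CCT3-2, carry the same library name and were not treated as independent replicates. With 1 PABPC1 list, no value has a replicate check, and no test between samples was made.

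PABPC1 is the main cytoplasmic poly(A)-binding protein. It coats the poly(A) tail of messenger RNA, binds the translation initiation factor eIF4G at the cap end, and takes part in both translation and the control of tail removal. Its RNA recognition motifs favour runs of adenosine, so its best known position is the very end of the message rather than the coding sequence. An exon peak outside the UTRs can lie in coding sequence or in an exon of a noncoding transcript.

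Each peak has a fold over input (log2) and a −log10 p, both given by the authors, and every PABPC1 peak had both at 3 or more. The depth is unknown, since the lists hold no read counts. Intervals cover counting error only. The sources do not state whether molecular identifiers were used, and PCR copies counted without such identifiers do not stand for separate molecules. Neighbouring peaks may not be independent. Of the 756 exon peaks, 144 (19%) touched another peak of the list, against 24.1% of all PABPC1 peaks, so a single bound stretch can count as several peaks. Of 686 exon peaks whose gene strand is known, 3 (0.437%) lay opposite to their gene, in Spdya, Setd1b and Itpr3, which are named after the count was seen.

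The bases under the peaks were read only where a RefSeq promoter window of the same build held a whole peak, since no genome sequence was used. That was the case for 1 exon peak, in the defensin gene Defb36 at chr2:152612485-152612541 on the plus strand, with a log2 fold of 3.04. Its first 30 bases are shown as the sole example of the RNA under an exon peak, with runs of at least 3 adenosines in capitals.
Defb36: tgctcagAAAtgctggaatctccacggcaa
The whole peak held 15 A among 57 bases (26.3%). With 1 sequence, nothing can be said about the base composition of the other exon peaks.

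Exon peaks were weaker than 3′ UTR peaks. Their median log2 fold was 3.66 (95% interval of the median 3.60 to 3.72, quartiles 3.30 and 4.19), against 4.29 for 3′ UTR peaks (4.26 to 4.32, quartiles 3.68 and 5.05). The difference of the medians was −0.63. Fold values below 4 were listed for 532 exon peaks (70.4%) and for 39% of 3′ UTR peaks, so most exon peaks lay in the log2 unit just above the authors' minimum. At the upper end, 17 exon peaks (2.25%) and 929 3′ UTR peaks (8.25%) reached a log2 fold of 6.

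A stricter call, which asked for a −log10 p of 5 or more beside a log2 fold of 4 or more, was met by 171 exon peaks, or 22.6% (19.8 to 25.7%). The background over all PABPC1 peaks was 49.5%, and 53.2% of 3′ UTR peaks met the call. The exon share minus the 3′ UTR share was −30.6 percentage points (−33.5 to −27.3). The promoter class, which takes any peak near a listed transcription start, had a median log2 fold of 3.90, and 37.5% of its peaks met the call. The 154 intron peaks stood higher, with a median of 4.74. The median −log10 p was 7.87 for exon peaks and 10.5 for 3′ UTR peaks. Widths were close, with a median of 52 bases for exon peaks (range 2 to 223) and 50 bases for 3′ UTR peaks.

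**Figure D1:**
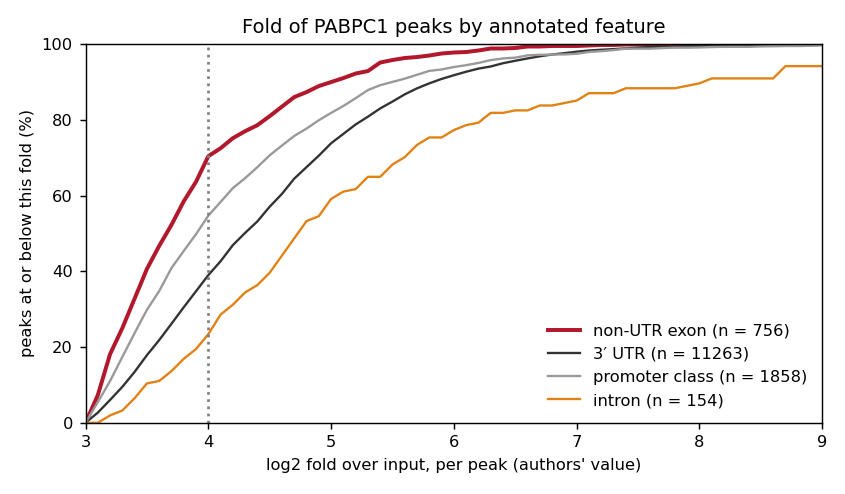
Cumulative share of PABPC1 peaks (vertical axis, %) at or below each log2 fold over input (horizontal axis) for 756 exon peaks, 11263 3′ UTR peaks, 1858 promoter-class peaks and 154 intron peaks, with a dotted line at a log2 fold of 4. The exon curve lies above and to the left of the others, with 70.4% of exon peaks and 39% of 3′ UTR peaks below 4.

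Most exon peaks lay in internal exons. Internal exons held 424 of 756 peaks, or 56.1% (52.5 to 59.6%), and last exons held 308, or 40.7% (37.3 to 44.3%). Only 9 peaks (1.19%) were in first exons of transcripts with several exons and 15 (1.98%) in the only exon of a transcript. No exon peak of the PABPC1 or CCT3-2 tables lay within 1000 bases of the listed start, where the promoter class takes precedence, and this bears on the count for first exons. Among protein-coding genes 414 of 664 exon peaks (62.3%) were internal and none was in a first exon.

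The division between exon classes differed from that of CCT3, which was compared over exon peaks more than 1000 bases from the listed start. In the CCT3 list 38.1% of 4269 such peaks were internal, 18 percentage points fewer than for PABPC1 (14.1 to 21.8). In the CCT3-2 list 37.9% of 7194 peaks were internal, a difference of 18.2 points (14.4 to 21.8). The intervals take each peak as independent, although many peaks shared a gene, more so in the CCT3 lists. Internal-exon peaks numbered 424 in 281 genes for PABPC1, 1627 in 433 for CCT3 and 2727 in 535 for CCT3-2. Shares with 1 peak per gene are given for PABPC1 only, so these intervals are too narrow. Last exons held 40.7% of the PABPC1 exon peaks, 49.7% of the CCT3 peaks and 48.4% of the CCT3-2 peaks. First exons held 1.19%, against 5.76% for CCT3 and 5.77% for CCT3-2. Among peaks that met the stricter call at this distance, internal exons held 46.2% of the PABPC1 peaks, against 29.3% for CCT3 and 27.7% for CCT3-2, differences of 16.9 points (9.30 to 24.7) and 18.5 points (11.0 to 26.2). The last-exon share there was 48% for PABPC1. It was 56.1% for CCT3, a difference of −8.18 points (−15.9 to −0.36), and 55.3% for CCT3-2, where the interval of the difference of −7.33 points reached 0 (−14.9 to 0.38).

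**Figure D2:**
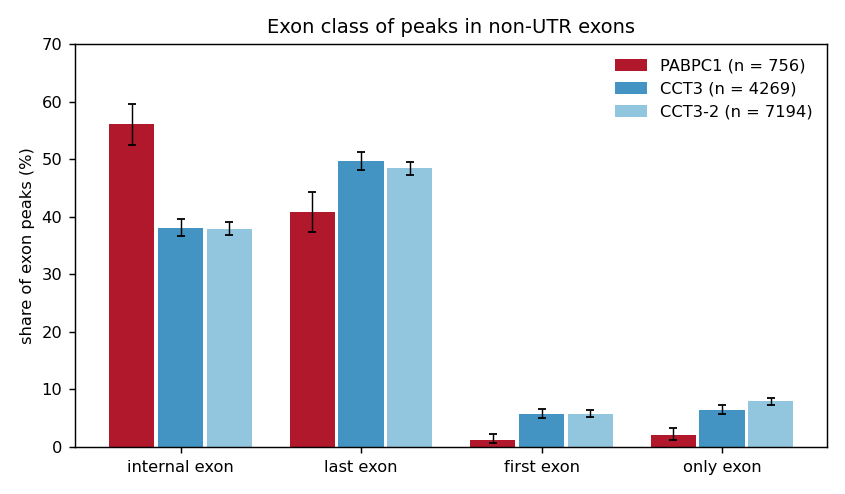
Share of exon peaks (%, bars from 0, error bars are Wilson 95% intervals) in internal, last, first and only exons for PABPC1, CCT3 and CCT3-2, over peaks more than 1000 bases from the listed start. PABPC1 has the tallest internal bar, at 56.1% against 38.1% for CCT3 and 37.9% for CCT3-2, and the shortest bars in the other classes.

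A larger share of PABPC1 than of CCT3 exon peaks lay just upstream of the last exon. In transcripts with several exons and over the same distances from the listed start, 141 of 741 PABPC1 exon peaks (19%, 16.4 to 22%) lay in the exon just before the last, against 11.0% of CCT3 peaks and 11.3% of CCT3-2 peaks. A further 10.8% lay 2 exons before the last, against 4.61% for CCT3 and 4.85% for CCT3-2. Exons at least 6 before the last held 15.9% of PABPC1 exon peaks, against 20.8% for CCT3 and 20.7% for CCT3-2. These shares count exons in the annotated transcript and not their lengths.

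Distances along the gene gave the scale of this pattern. A distance was available for 676 exon peaks, those with a known gene strand and a midpoint inside the RefSeq gene span. They lay a median of 2880 bases from the 3′ end of the gene span, introns included, against 448 bases for 10663 3′ UTR peaks. Within 500 bases of that end lay 134 exon peaks, or 19.8% (17 to 23%), against 52.8% of 3′ UTR peaks. The median was 6800 bases for internal-exon peaks and 634.5 bases for last-exon peaks, and 2.68% of the internal and 45.2% of the last-exon peaks lay within 500 bases.

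The exon peaks nearest the gene end had somewhat higher folds. Their median log2 fold was 3.73 within 500 bases, 3.70 from there to 2000 bases, 3.62 from there to 10000 bases and 3.54 beyond. The share meeting the stricter call was 30.6% in the nearest group and 17.1% in the farthest. Long noncoding RNA (lncRNA) genes held 26 of the 134 peaks in the nearest group, and lncRNA exon peaks had a median log2 fold of 4.35. The folds by distance were not computed for protein-coding genes alone. At each of these distances the 3′ UTR peaks had the higher median, with 4.41, 4.19, 4.11 and 4.31. By class, the median log2 fold was 3.57 in internal exons and 3.73 in last exons.

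**Figure D3:**
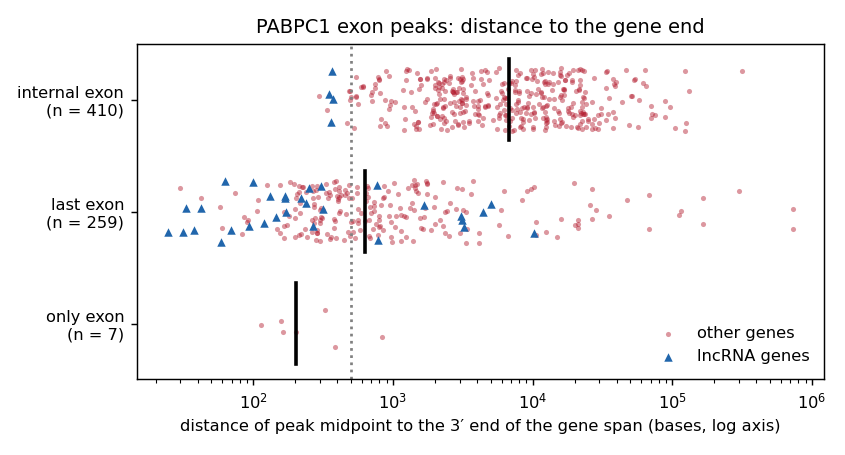
Distance of each exon peak's midpoint to the 3′ end of its gene span (bases, log axis, introns included) for peaks in internal, last and only exons, with medians as black bars and 500 bases as a dotted line. Blue triangles are peaks in lncRNA genes. Last-exon peaks centre on 634.5 bases and internal-exon peaks on 6800 bases, and 26 of the 35 lncRNA peaks with a distance lie within 500 bases.

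Exon peaks in long noncoding RNAs had higher folds and lay nearer to the gene end than those in protein-coding genes. The 44 peaks in 22 lncRNA genes had a median log2 fold of 4.35, and 23 of them (52.3%) met the stricter call. The 664 peaks in 446 protein-coding genes had a median of 3.60, and 20.2% met it. Last exons held 40 of the 44 lncRNA peaks (90.9%) and 36.6% of the protein-coding ones. Of 35 lncRNA peaks with a distance, 26 lay within 500 bases of the gene end (74.3%, 57.9 to 85.8%), against 16.9% of protein-coding ones. Noncoding transcripts have no UTR, and none of the 22 lncRNA genes had a 3′ UTR peak by position. Peaks in the 3′ UTRs of coding genes are outside the exon set, whereas lncRNA peaks near the gene end stay in it. The contrast is therefore partly set by the annotation. Of all PABPC1 3′ UTR peaks, with a median log2 fold of 4.29, 53.2% met the stricter call. Of those with a distance, 52.8% lay within 500 bases of the gene end.

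The highest lncRNA peak was in 4933427D06Rik at chr6:89109912-89109966, 100 bases from the gene end, where the log2 fold was 7.36 and the −log10 p was 26.6. Gt(ROSA)26Sor, the noncoding transcript of the Rosa26 locus, carried 4 peaks in its last exon, with log2 folds of 6.79, 6.44, 5.19 and 3.82. In 4933404O12Rik the peak 24.5 bases from the end had a log2 fold of 6.26, and 3 peaks farther upstream had 3.95, 3.93 and 3.19. Smkr-ps carried 5 peaks between 31.5 and 316 bases from its end, with log2 folds of 3.55 to 4.15. In 2410017I17Rik, 3 touching fragments of 9, 10 and 5 bases shared a log2 fold of 6.60. Tug1, the lncRNA named in the title of the series, had 1 peak, in its last exon 4394 bases from the gene end, where the log2 fold was 3.77 and the −log10 p was 3.56. It did not meet the stricter call and was not among the 26 lncRNA peaks near a gene end.

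The exon peaks fell in 470 genes with a RefSeq gene ID, of which 446 were protein-coding, 2.04% of 21896 such genes. A single exon peak was found in 331 genes (70.4%), 2 peaks in 85 and at least 4 in 27. By the gene name listed with the 3′ UTR peak, which is that of the nearest start, 216 of the 470 genes (46.0%) also had a 3′ UTR peak. By position within the gene on the same strand the number was 304 (64.7%, 60.3 to 68.9%). The other way round, 297 of 4334 protein-coding genes with a 3′ UTR peak, or 6.85%, also had an exon peak.

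Within these 304 genes the exon peaks were again the weaker ones. The median exon fold of a gene was below its median 3′ UTR fold in 235 genes (77.3%, 72.3 to 81.7%), with medians over genes of 3.55 for exon peaks and 4.38 for 3′ UTR peaks. The median difference within a gene was −0.66 (quartiles −1.37 and −0.05). In the 76 genes with exactly 1 exon peak and 1 3′ UTR peak, the exon fold was lower in 58, and the median difference was −0.65. The gap between the nearest exon and 3′ UTR peaks had a median of 1129.5 bases (quartiles 182.75 and 7016). In the 166 genes with no 3′ UTR peak by position the exon peaks had a median log2 fold of 3.81, against 3.57 in the genes with one. All 22 lncRNA genes, whose transcripts have no UTR, are among the 166, so the 2 groups differ in gene type.

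**Figure D4:**
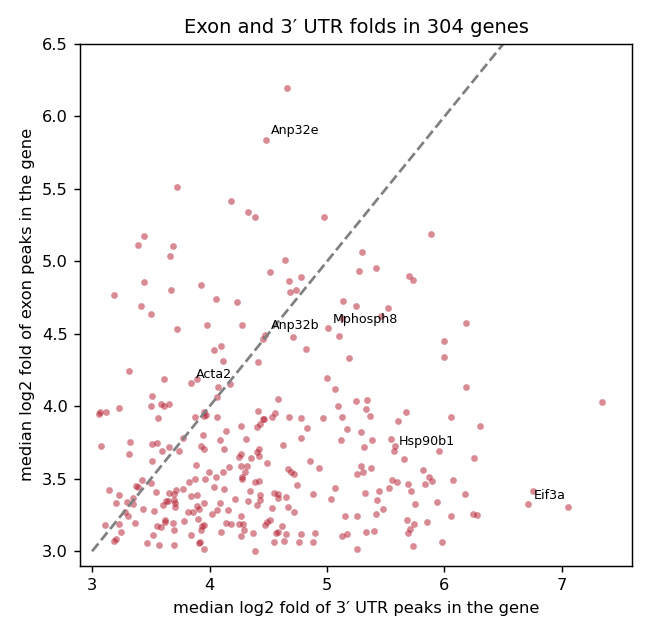
Median log2 fold over input of exon peaks (vertical axis) against that of 3′ UTR peaks (horizontal axis) for the 304 genes with both, 1 point per gene, with a dashed line of equality. In 235 genes the point lies below the line, and Anp32e and Acta2 are among those above it.

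Hsp90b1, which encodes a heat shock chaperone of the endoplasmic reticulum, had the most exon peaks. Its 12 peaks lay in exons 9, 10, 12 and 13 of 13, and its 8 3′ UTR peaks reached a log2 fold of 6.79. Those in exon 9, about 3 kb from the gene end, had log2 folds of 3.16 and 3.34, and those in exon 10 had 3.16 and 3.24. The peaks in exon 12 spanned 3.34 to 4.48, and those in the last exon had 4.39, 4.54 and 4.55. The folds were higher in the last exon than in exons 9 and 10. In the same stretch 2 further peaks, with log2 folds of 3.61 and 3.89, were annotated to the pseudogene 1810014B01Rik, named after its values were seen.

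Several other genes carried 5 or 6 exon peaks. Tent4b, a noncanonical poly(A) polymerase, had 6 peaks in internal exons, 12580 to 15775 bases from the end, with log2 folds of 3.42 to 5.0 and no 3′ UTR peak. Mphosph8, a chromodomain protein of the HUSH silencing complex, had 5 peaks with a highest log2 fold of 5.74, against a highest of 5.09 among its 3′ UTR peaks. Ccar1, a regulator of cell cycle and apoptosis, had 6 exon peaks with log2 folds of 3.13 to 4.23, against a highest of 4.93 among its 6 3′ UTR peaks. 1700019A02Rik had 6 internal peaks that stayed between 3.18 and 3.55.

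The 3 listed members of the Anp32 family of acidic nuclear phosphoproteins, looked at together after their values were seen, all had exon peaks, and 8 of their 9 peaks lay in internal exons 5 or 6 of 7. The highest was 5.84 in Anp32e, 5.81 in Anp32a and 5.12 in Anp32b, on the log2 scale. Anp32b had 6 exon peaks, with log2 folds of 4.09 to 5.12, and 3 3′ UTR peaks that reached 5.78. Among single peaks outside lncRNAs, Rtf1, a transcription elongation factor, reached a log2 fold of 6.16 in exon 6 of 18, 23338.5 bases from the gene end. Tmed7, a protein of vesicle transport, reached 6.26 in its last exon. Mrpl20, of the large subunit of the mitochondrial ribosome, had 4 touching fragments in its last exon 262 to 289.5 bases from the end, at log2 folds of 6.25, 6.25, 5.77 and 3.39. Fscb, a protein of the sperm tail, had 5.31 in its only exon.

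**Figure D5:**
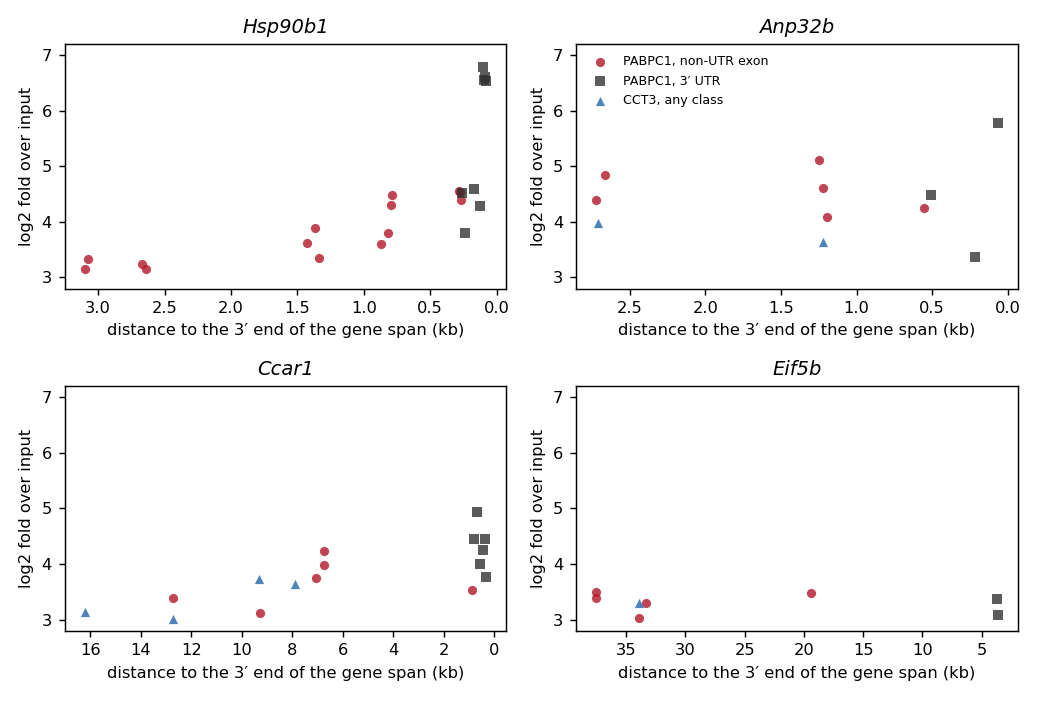
Log2 fold over input (vertical axis) of PABPC1 peaks in non-UTR exons, PABPC1 peaks in 3′ UTRs and CCT3 peaks against distance to the 3′ end of the gene span (kb, falling to the right) in Hsp90b1, Anp32b, Ccar1 and Eif5b. CCT3 folds come from a separate table. The Hsp90b1 panel includes the 2 exon peaks annotated to 1810014B01Rik. In Hsp90b1 the folds are highest beside the gene end, at 6.79, whereas in Eif5b the 5 exon peaks lie between 3.03 and 3.49 far upstream.

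In the folding machinery, an exon peak was found in 7 of 25 genes for heat shock proteins and co-chaperones (28%, against 2.04% of protein-coding genes). A 3′ UTR peak was found in 17 of the 25, and 6 genes had both. The 7 genes included Hsp90b1 at a highest log2 fold of 4.55, the disulfide isomerase Pdia3 at 4.20, the endoplasmic reticulum chaperone Hspa5 at 3.82, and 4 others. Among these Calr, a calcium-binding chaperone of the same compartment named after its values were seen, had its exon peak at the ceiling of −log10 p, 400, with a log2 fold of 3.59. Of the 9 TRiC/CCT subunit genes 1 had exon peaks, Cct5, with log2 folds of 4.23 and 3.97 in its last exon about 0.2 kb from the gene end.

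The counts for the translation and RNA machinery stand against 2.04% of all protein-coding genes and 6.85% of those with a 3′ UTR peak. Exon peaks were found in 6 of 43 translation factor genes (14%), the highest in the helicase cofactor Eif4h at 3.99, the initiation factor subunit Eif3a at 3.69 and the elongation factor subunit Eef1d at 3.55, and none met the stricter call. Of 82 cytoplasmic ribosomal protein genes 7 had one (8.54%), led by Rpl34 at 4.93, Rps10 at 3.65 and Rpl17 at 3.59, and none of the 7 had a 3′ UTR peak by position. Ribosomal protein genes have many processed copies, and the sources used here do not say how reads with several matches were placed. Of 35 genes for poly(A) tail and deadenylation factors 2 had one (5.71%), both regulators of PABPC1 itself, Paip2b at 3.72 and Paip2 at 3.0, whereas 22 had a 3′ UTR peak. Of 31 nuclear RNA-binding protein genes 4 had one (12.9%), with Srsf6 at 4.68, Hnrnpc at 4.11 and Hnrnpa2b1 at 3.53. None of the 28 listed replication-dependent histone genes, 30 listed cell cycle genes or 48 listed C2H2 zinc finger genes with long exons had one. Beside a background of 2.04%, lists of these sizes can hold none or few. Genes outside the lists were not counted, and Cdk11b, a cyclin-dependent kinase named after its values were seen, had 4 exon peaks.

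Markers of the labelled cell type and of other cell types were among the genes. Of 36 meiotic spermatocyte genes 5 had an exon peak (13.9%, against the same 2.04% and 6.85%), and all 5 also had a 3′ UTR peak. They included Tex30 at a log2 fold of 4.03, the meiotic entry factor Stra8 at 3.87 and Sycp1, of the synaptonemal complex, with 3 peaks and a highest of 3.78. None of the 16 listed spermatid genes and none of the 11 listed Sertoli genes had an exon peak. Beside a background of 2.04%, lists this short can hold none, so no absence is read from them. Genes outside these lists were not sorted by cell type, and Fscb, of the sperm tail and outside the spermatid list, had one. Of 7 Leydig cell genes 2 had one (28.6%), the steroid enzymes Hsd3b1 with a highest of 4.78 and Cyp11a1 with 3.87. Of 19 fibroblast and matrix genes 5 had one (26.3%), led by Col4a2 at 4.60, Dcn at 4.00 and Fn1 at 3.92. None of these Leydig and fibroblast genes had an exon peak that met the stricter call, against 1 of the meiotic genes. By position, 3′ UTR peaks lay in 25 of the meiotic, 7 of the spermatid, 6 of the Sertoli, 4 of the Leydig and 11 of the fibroblast genes. A list of 9 peritubular myoid genes, added after values were seen, held 2 (22.2%), the smooth muscle genes Acta2 (4 peaks, highest 4.98) and Myh11 (5 peaks, highest 4.12). The meiotic share was below those of the Leydig and fibroblast lists, which are short. The peritubular myoid share is not compared, because that list was chosen with the peaks of its genes known. The median over all 470 genes of the highest exon fold was 3.70. A peak reports bound RNA over input and not the RNA's level, so these counts do not give expression.

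Exon peaks coincided with CCT3 peaks more often than 3′ UTR peaks did. At least 1 base was shared with a CCT3 peak by 32 of 756 exon peaks, or 4.23% (3.01 to 5.91%), against 34 of 11263 3′ UTR peaks (0.302%) and a background of 0.582% over all PABPC1 peaks. The difference between exon and 3′ UTR peaks was 3.93 percentage points (2.71 to 5.61). Exon peaks made up 39% of all 82 overlapping PABPC1 peaks. The share was 2.60% for the 154 intron peaks (4 peaks) and 0.646% for promoter-class peaks. The CCT3-2 list gave 42 exon peaks (5.56%, all on the same strand), against 0.488% of 3′ UTR peaks and a background of 1.11%, and 30 exon peaks overlapped both lists. In that list the share was higher still for intron peaks, at 13% (20 peaks), and was 2.15% for the promoter class. With CCT3-2 peaks below 3 in either value left out, a choice made after seeing the data, it was 4.76% for exon peaks. In non-UTR exons lay 47.9% of all CCT3 peaks, and 31 of the 32 partner peaks were exonic.

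Genes with an exon peak held CCT3 peaks about as often as other genes with PABPC1 peaks, while their peaks overlapped more often. Of the 470 genes with an exon peak 65 (13.8%) held any CCT3 peak, against 14.4% of 4037 genes with 3′ UTR peaks and no exon peak. The gene sets are unlike, since the 470 include lncRNA genes and pseudogenes. The 4037 are all protein-coding and were the single such gene at the position of a 3′ UTR peak. Within genes that held a CCT3 peak, 31 of 110 exon peaks (28.2%) overlapped one, against 2.07% of 1451 3′ UTR peaks. Overlaps were more frequent in internal exons, at 5.66%, than in last exons, at 1.95%, and 24 of the 32 were internal. The stretch shared had a median of 66.5 bases (5 to 125).

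The overlapping peaks lay in 26 genes and had a median log2 fold of 3.51 in the PABPC1 list, against 3.66 for all exon peaks. Of the 171 exon peaks that met the stricter call, 9 (5.26%) overlapped any CCT3 peak and 19 (11.1%) any CCT3-2 peak. The 9 and the 19 include several peaks each in Anp32b and Zrsr2, and the 19 also several in 2410017I17Rik and ENSMUST00000137175.1. With the call asked of both lists, 1 of the 171 (0.585%) overlapped a CCT3 peak, against 3 of 5990 3′ UTR peaks (0.0501%), and 7 (4.09%) overlapped a CCT3-2 peak, against 0.117% of 3′ UTR peaks. These 7 were 1 peak of ENSMUST00000175990.1 and fragments of 2 to 5 bases in ENSMUST00000137175.1, so they do not stand for 7 separate sites. The 1 peak shared with CCT3 was in the first exon of the transcript ENSMUST00000175990.1, in the span of Zfp597 and Zfp174, with a log2 fold of 7.14 in the PABPC1 list and 6.39 in the CCT3 list. Zrsr2, a splicing factor, had 2 touching PABPC1 fragments in exon 4 of 11 with log2 folds of 6.0 and 4.80, under 1 CCT3 peak of 3.10. Upf3b, of nonsense-mediated decay and named after its values were seen, had a PABPC1 peak of 5.15 in exon 7 of 10 over a CCT3 peak of 3.91. In Anp32b 5 of the 6 exon peaks lay over the 2 CCT3 peaks of the gene, which had log2 folds of 3.99 and 3.63. In Anp32a the highest exon peak, at 5.81, overlapped a CCT3-2 peak of 3.55.

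The other overlapping genes given here were named after their values were seen. Ythdc1, a nuclear reader of methylated adenosine, had a PABPC1 peak of 3.59. The splicing-related genes Arglu1, Srek1, Ddx46 and Nsrp1 had 3.39, 3.24, 3.21 and 3.13, and Knop1, listed as a lysine-rich nucleolar protein, had 3.19. Ccar1 had 2 overlapping peaks, in exons 17 and 18 of 25, at 3.40 and 3.13, whereas its 4 other exon peaks and its 6 3′ UTR peaks overlapped none. Eif5b, an initiation factor of subunit joining, had 1 of its 5 exon peaks over a CCT3 peak, at 3.03 in exon 5 of 24. All of these values are log2 folds from the authors' PABPC1 list, and those of the CCT3 lists come from separate tables and are not compared with them.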

How the data were processed

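The authors' peak lists for PABPC1, CCT3 and CCT3-2 were used as deposited. The deposited log2 values are folds per peak over input and the deposited −log10 p values stop at 400, per the file headers of the CCT3 table. The other 2 tables leave these columns unnamed, and they were taken as the same quantities because the values are of the same kind and stop at the same ceiling. The minimum differs: both values are at least 3 in the PABPC1 and CCT3 lists, whereas CCT3-2 goes down to 2.37 and 1.40, and 83.7% of its peaks have both at 3 or more. The build is mm10 and bcl2fastq 2.20 was used, per the submitters' processing notes. Not given in the sources used here are the aligner, peak caller, annotation tool and use of molecular identifiers.

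Exon peaks were assigned to the gene ID in their annotation, and 712 of 756 matched RefSeq (GRCm38.p6). The other 44 are named by transcript only. The gene listed for the nearest start differed for 213 (28.2%). PABPC1 3′ UTR peaks were placed by position and strand. CCT3 and CCT3-2 peaks took the gene ID in their annotation where it gave one, and otherwise the gene listed for the nearest start. Overlap needed 1 base, regardless of strand. The CCT3 table has no strand. Shares have Wilson and their differences Newcombe 95% intervals, and medians binomial order-statistic intervals (Python 3.11.15, numpy 2.4.6, pandas 2.3.3, scipy 1.17.1, with matplotlib 3.10.9 for figures). On simulated data 200 of 200 planted overlaps and 500 of 500 exon ranks were recovered. Of 456 symbols in 15 gene lists, 455 matched. The promoter window sequence is from RefSeq, GRCm38.p6.

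Members, lists and alternatives were chosen with earlier results of these data known. Genes are named for the 12 highest folds, the most peaks (8 genes), the 4 highest per exon class, the 5 highest without a 3′ UTR peak, CCT3 overlap (8 at most) and up to 3 per list, with others marked as chosen after their values were seen.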

Additional observations from a re-analysis of the deposited data

How the results depend on the processing

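The 14 results were recomputed under 64 alternatives. Of these 36 stayed inside the reported interval, or within 1.5 times for the number of genes, and 28 did not, with no change of sign. At the stricter threshold the exon share of PABPC1 peaks was 2.45%, last exons held 48%, internal exons 46.2% and first exons 3.51% of exon peaks, the median log2 fold was 4.74 and differed from 3′ UTR peaks by −0.21, the median width was 44 bases, 107 genes had an exon peak, 33.6% of genes also had a 3′ UTR peak, 29.1% of exon peaks lay within 500 bases of the gene end, and, with the threshold in both lists, 0.585% overlapped a CCT3 peak. In protein-coding genes the exon share was 4.99%, last exons held 36.6%, internal exons 62.3%, the only exon 1.05% and first exons 0%, the difference in fold was −0.70, and 16.9% lay within 500 bases. With 1 peak per gene the last-exon share was 44.4%, the internal share 52.4% and the difference in fold −1.04. Beyond 1000 bases of the listed start the exon share was 6.18%. Merging within 10 bases gave a median width of 58 bases, peaks of at least 20 bases a stricter-threshold share of 19.6%, and 50% reciprocal overlap a CCT3 share of 2.38%. Genes with a 3′ UTR peak came to 57.5% by listed gene for both kinds of peak and, by position, 64.7%, an alternative chosen after seeing the data. Within 1000 bases of the gene end lay 30.8%. The causes were not tested, beyond what each subset's own construction sets. The share of A bases was not run, as no genome was used. The unknown depth limits every fold near 3. No paired analysis was possible because none of the results comes from a test between samples.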

Other observations

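The exon peaks with no gene ID are annotated to a transcript only. They numbered 44, with a median log2 fold of 3.79. The highest fold among all exon peaks was of this kind, in ENSMUST00000218063.1 on chromosome 10 inside the spans of Parpbp and Gm6653, where 3 touching fragments had log2 folds of 7.82, 7.01 and 5.25. In ENSMUST00000137175.1, inside Prkca, fragments of 2 to 5 bases in both exons of the transcript had log2 folds of 5.39 to 5.42 at the ceiling of −log10 p, and 5 exon peaks had exactly the start and end of a CCT3-2 peak, each at a log2 fold of 4.70 in that list. No exon peak had the same start and end as a CCT3 peak.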
